A study of Rattus norvegicus with 12 samples.

Results

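The neuronal adhesion molecules examined here were the classical and atypical cadherins, the protocadherins, the immunoglobulin-type adhesion molecules (Ncam, Alcam, the L1 family, the contactins, the IgLON and Cadm families), the contactin-associated proteins, the neurexins and the neuroligins. They were chosen by gene symbol alone: of the 14218 genes with a probe set on the array, 59 had such a symbol, and 58 of these were among the 13253 genes tested. Cdh5, the cadherin of blood vessel endothelium, was left out by the same rule. Parietal cortex RNA came from 12 male Fischer 344 rats, 6 young (3 to 5 months) and 6 aged (21 to 23 months), with 1 array for each rat. The tissue field of the sample labels reads frontal cortex, whereas the titles and the methods read parietal cortex, and parietal is used here. The labels name no treatment, and by the methods rats of both ages had wireless sleep-recording emitters implanted, with leads over this cortex, and were trained in a water maze before tissue was taken. Among the arrays, aged rats 2 and 6 correlated least with the other arrays (mean r 0.9458 and 0.9507). Young rat 4 (0.9511) was close to aged rat 6 and was kept. The counts without aged rats 2 and 6 are given beside the main ones. The comparison asked which adhesion transcripts differed between the ages in this cortex.

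Cadherins are calcium-dependent proteins that bind the same or a related cadherin on the neighbouring cell and are tied to actin by catenins. Protocadherins lack that catenin link, and the clustered ones give neurons a surface identity through the combination of isoforms each cell makes. Contactins, L1 proteins and contactin-associated proteins hold axons to each other and to myelin, while neurexins on the axon pair with neuroligins on the dendrite across the synapse.

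To place the genes that the results below turn on, the sequence just upstream of the annotated start was read for each of them from RefSeq (build GRCr8, 250 bases, gene strand). The arrays measured transcripts, and nothing was measured at these promoters. Capitals mark the GC box, GGGCGG or its reverse complement CCGCCC, and runs that overlap are printed as 1 stretch. Cdh23 (chr20:29165333-29165582, minus strand) and Cntn2 (chr13:46528026-46528275, minus strand) are shown as genes with higher signal in aged rats. Pcdh10 (chr2:130553188-130553437, plus strand) and Alcam (chr11:61805207-61805456, plus strand) are shown as genes with lower signal in aged rats.
Cdh23: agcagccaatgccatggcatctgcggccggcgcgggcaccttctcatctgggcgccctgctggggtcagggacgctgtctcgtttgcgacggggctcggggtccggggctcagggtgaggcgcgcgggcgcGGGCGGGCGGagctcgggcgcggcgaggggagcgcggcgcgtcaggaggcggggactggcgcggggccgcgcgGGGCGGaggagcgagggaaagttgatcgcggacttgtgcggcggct
Cntn2: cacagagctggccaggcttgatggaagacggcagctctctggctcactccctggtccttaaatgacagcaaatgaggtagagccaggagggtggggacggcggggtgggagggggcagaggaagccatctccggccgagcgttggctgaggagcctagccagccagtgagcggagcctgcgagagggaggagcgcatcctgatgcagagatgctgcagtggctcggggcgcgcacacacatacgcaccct
Pcdh10: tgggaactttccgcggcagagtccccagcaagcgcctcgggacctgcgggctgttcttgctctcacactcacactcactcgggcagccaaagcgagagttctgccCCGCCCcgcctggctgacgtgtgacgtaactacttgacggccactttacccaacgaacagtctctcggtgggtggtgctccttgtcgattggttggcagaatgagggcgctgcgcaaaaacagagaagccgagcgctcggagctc
Alcam: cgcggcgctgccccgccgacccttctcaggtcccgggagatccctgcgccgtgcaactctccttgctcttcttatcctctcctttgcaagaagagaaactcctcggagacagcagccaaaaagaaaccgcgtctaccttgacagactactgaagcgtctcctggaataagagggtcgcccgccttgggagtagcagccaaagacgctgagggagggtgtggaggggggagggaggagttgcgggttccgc
The Cdh23 window held 3 GC boxes, the Pcdh10 window held 1, and neither of the others held those letters. A GC box was present in 56% of the 10922 genes tested that had a promoter in the same table, and in 32.3% of all its 27457 promoters. The table held promoters for 38 of the 59 adhesion genes, too few for a comparison of promoter content between these genes and the rest, so none is drawn.

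All signals below are the deposited linear intensities, and a log2 fold change is the mean log2 signal of aged rats minus that of young rats. No adhesion gene passed an adjusted p of 0.05 in limma, against 7 of all 13253 genes tested (0.0528%). At an unadjusted p of 0.05 or less, 4 of the 58 were higher in aged rats (Cntn2, Cdh23, Cdh1 and Cdh3), where 6.49% of all genes were. Cdh1 passed the signal filter only through the aged group, in which it is high, so 3 of these 4 remain without it. Another 4 were lower (Pcdh10, Alcam, Cadm3 and Cdh7), where 2.62% of all genes were. At 0.01 or less 3 were higher (Cntn2, Cdh23 and again Cdh1) and 0 lower, against 1.92% and 0.604% of all genes. On the same values the methods' t-test gave 1 higher and 0 lower at the methods' threshold of 0.01, against 223 and 102 of all 13253 genes. At 0.05 it gave 4 higher and 5 lower (6.16% and 2.99% of all genes). After Benjamini-Hochberg adjustment it gave 0, against 7 of all genes. In all, 27 adhesion genes, Cdh1 among them, had a higher mean and 31 a lower mean in aged rats. The median log2 fold change of the 58 was -0.033. Over all genes tested the median was 0.024, with 56.9% higher and 43.1% lower. Without aged rats 2 and 6, an alternative chosen after seeing the data, 4 were higher and 6 lower (5.89% and 3.4% of all genes), with Cdh3, Cadm3 and Cdh7 no longer among them. With the median of each array set equal, 3 adhesion genes were higher and 8 lower at the same unadjusted level, and all genes moved likewise, to 3.12% higher and 6.67% lower. The count of lower genes was 0 among the rats with low sample code numbers (1.52% of all genes) and 1 among those with high ones (1.62%). Each set holds both ages. It was 1 without aged rat 3 (2.52% of all genes) and 2 with the myelin covariate described further on (2.54%). It was also 2 without any 1 of young rats 2, 4, 5 and 6 or aged rat 4 (2.02% to 2.35% of all genes). The tissue was whole cortex, in which fewer cells of a type and less RNA per cell cannot be told apart.

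**Figure D1:**
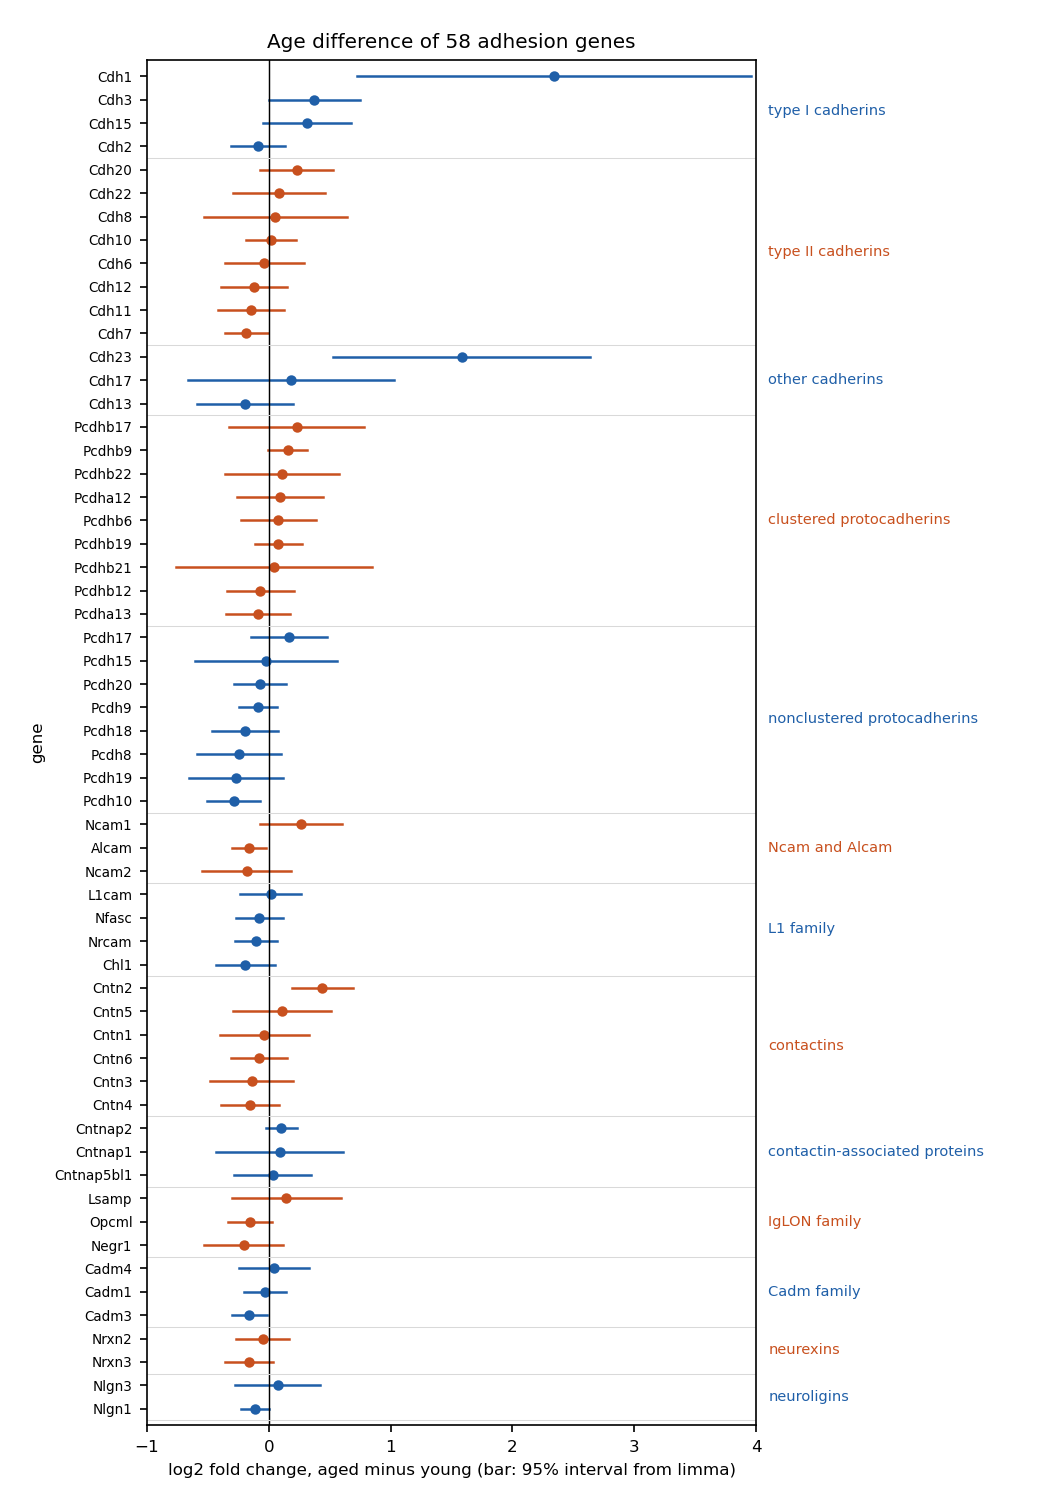
Log2 fold change, aged minus young, of the 58 adhesion genes tested, grouped by subfamily (colours alternate between subfamilies). Points are limma estimates from 6 young and 6 aged rats and bars are their 95% intervals: Cdh1 and Cdh23 lie far to the right with wide bars, and most other genes lie close to 0.

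The arrays bounded most of these differences. The 95% interval of the log2 fold change lay within 0.5 either side of 0 for 36 of the 58 genes and within 1 for 55, but within 0.3 for only 11. Adhesion genes varied among rats of one age by a median SD of 0.241 on the log2 scale, against 0.196 over all genes. Of the 58 genes, 54 had a signal above the cutoff (19.7) on all 12 arrays, as had 11434 of all 13253 genes tested. Direction differed along the signal scale. When genes were put into 4 equal bins by mean signal, in the dimmest bin all 10 adhesion genes were higher in aged rats, where 31.9% of all genes in that bin were lower. Cdh1, which passed the signal filter only through the aged group, was among these 10. In the brightest bin 16 of 22 adhesion genes (72.7%) were lower, against 59.1% of all genes there. Whether the subfamilies described below differ from genes of like signal was not tested.

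Among the type I cadherins, 3 of 4 had higher means in aged rats, among them Cdh1, which passed the signal filter only through that group. Cdh3, P-cadherin, had signals from 56.1 to 83.2 (median 70.2) among the young and from 66.6 to 120 (median 91.4) among the aged. Above every young rat lay 3 aged rats, and the other 3 lay inside the young range. Its log2 fold change was 0.37 (SE 0.171, limma adjusted p = 0.545), and 0.18 without aged rats 2 and 6. Cdh15, M-cadherin, first known from muscle, averaged 120 ± 24.9 in young and 149 ± 30.3 in the aged (SD, n = 6 each) and differed by a log2 fold change of 0.31 (SE 0.166, adjusted p = 0.599). Cdh2, N-cadherin, which joins the pre- and postsynaptic membranes, ranged from 1404 to 1802 among the young and from 1270 to 1807 in aged rats. The young range lay inside the aged one, with a log2 fold change of -0.09 (95% interval -0.31 to 0.13, adjusted p = 0.851).

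Cdh1, E-cadherin of epithelia, had a log2 fold change of 2.34 (SE 0.741, adjusted p = 0.371) at the edge of detection. With 16 added to every signal before the log it was 0.77, below the 1.22 that Cdh23 then had. Its signal exceeded the cutoff in 1 young rat (22.5) and in 3 aged rats (22.5, 42.7 and 44.8), and the remaining rats lay between 0.903 and 13.9. The gene's other probe set averaged 11.7 in young and 9.68 in aged rats and failed the signal filter.

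Cdh23, the cadherin of the tip links between hair-cell stereocilia, was the only adhesion gene whose age groups did not overlap, where 0.536% of all genes had every aged rat above every young rat. Young rats had signals of 49.0, 47.0, 80.0, 8.59, 67.0 and 93.8, and aged rats 124, 113, 178, 140, 132 and 157. The highest young rat thus lay below the lowest aged rat, and 1 young rat lay far under the others. The log2 fold change was 1.58 (SE 0.483, adjusted p = 0.356), and without that young rat it was 1.098 (adjusted p = 0.121). A single probe set represented the gene, and 11 of the 12 arrays had it above the cutoff. The remaining atypical cadherin named here, Cdh13 or T-cadherin, which is anchored in the membrane by a lipid and lacks a cytoplasmic tail, averaged 1387 ± 283 in young and 1221 ± 336 in the aged (SD, n = 6 each). Its difference of -0.20 on the log2 scale was close to its standard error (SE 0.180, adjusted p = 0.782) and ran from -0.33 to -0.11 as single rats were left out. Cdh16, the kidney cadherin, had signals of 2.55 to 7.92 on the 12 arrays, was below the cutoff on each, and was not tested.

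The 8 type II cadherins, several of which mark particular cortical layers or areas, divided evenly, 4 higher and 4 lower. Cdh7 had signals from 567 to 728 (median 680) among the young and from 530.5 to 674 (median 565) among the aged. Every aged rat lay below the young median and 4 lay below every young rat. This gave a log2 fold change of -0.19 (SE 0.081, adjusted p = 0.525). Cdh22 ranged from 3070 to 5383 among the young and from 3202 to 6181 in aged rats, and its log2 fold change of 0.08 had a 95% interval from -0.29 to 0.46.

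**Figure D2:**
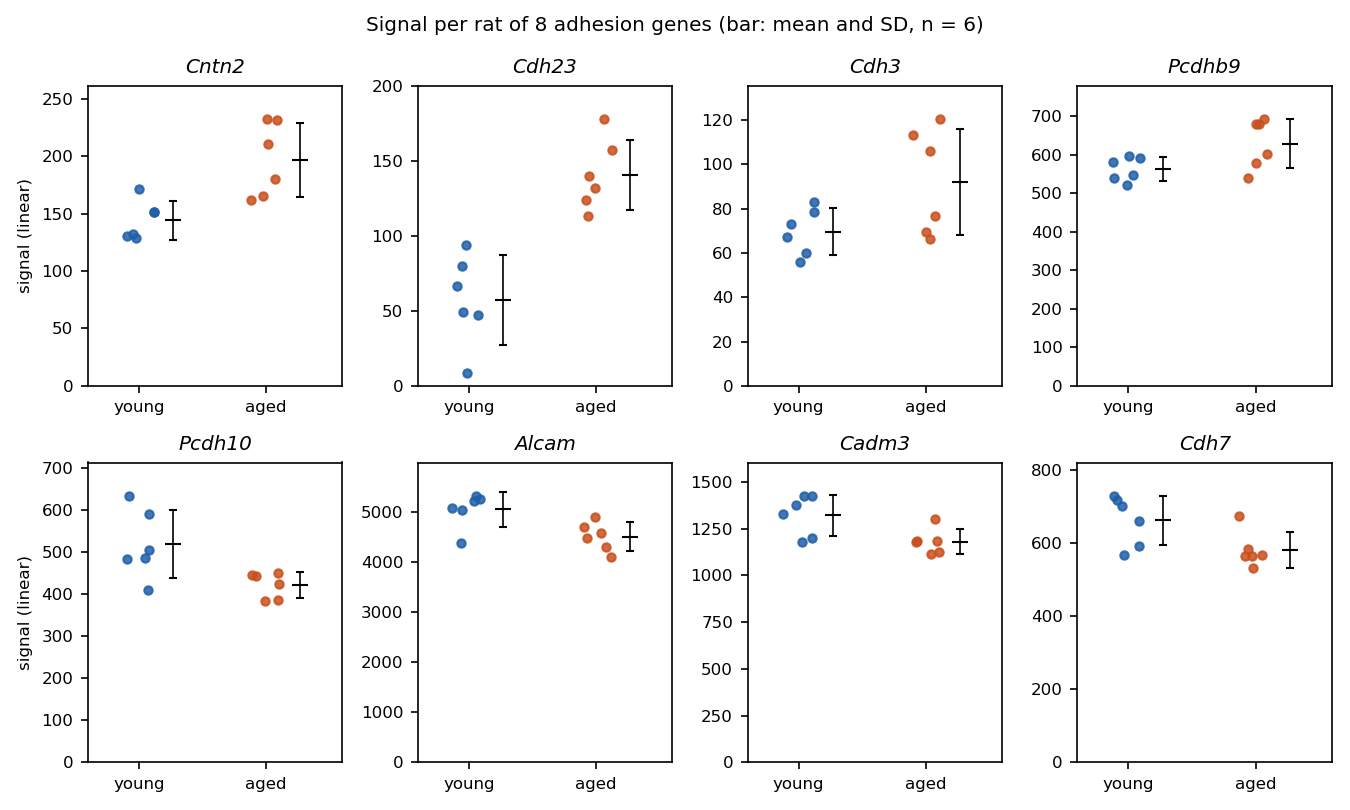
Deposited linear signal of 8 adhesion genes in each of 6 young (blue) and 6 aged (orange) rats, with the mean and SD beside the points and each vertical axis starting at 0. Cdh23 is the only one of these genes whose 2 groups are apart, while the groups of Cntn2, Pcdh10 and Alcam overlap in a few rats.

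Of the 9 clustered protocadherins tested, 7 had higher means in aged rats, where 56.9% of all genes did. Their median log2 fold change was 0.079, and none was at an unadjusted limma p of 0.05 or less. All but Pcdhb9 lay in the 2 dimmest bins of signal, where 31.9% and 34.6% of all genes were lower. Pcdhb9 ranged from 520 to 597 (median 564) among the young and from 540 to 692 (median 640) among the aged. Above every young rat lay 4 aged rats, and the log2 fold change was 0.16 (SE 0.074, adjusted p = 0.556). These genes are near copies of each other, so a probe set may take up RNA of neighbouring members. The array also carried probe sets annotated to the whole alpha or gamma cluster, which count as no single gene and were outside the 59. Both alpha cluster probe sets, with 15 symbols each, were lower in aged rats. The first averaged 3169 ± 154 in young and 2741 ± 284 in aged rats, and the second 2845 ± 172 and 2374 ± 229 (SD, n = 6 each). Below every young rat lay 4 aged rats by the first probe set and 5 by the second. Their log2 fold changes were -0.21 (SE 0.075, limma adjusted p = 0.522 over 28193 probe sets) and -0.26 (SE 0.076, adjusted p = 0.399). At an unadjusted p of 0.05 or less, which both met, 2.13% of all probe sets were lower. The gamma cluster probe sets, with 14 and 13 symbols, had log2 fold changes of 0.03 (SE 0.111) and 0.01 (SE 0.088). The single-gene alpha members, Pcdha12 and Pcdha13, had 0.09 (SE 0.161) and -0.09 (SE 0.121). Whether the cluster probe sets differed from the single-gene ones was not tested.

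Nonclustered protocadherins act as adhesion and signalling molecules in growing and branching neurites. They were lower in aged rats in 7 of 8 cases, with a median log2 fold change of -0.14. Of all genes 43.1% were lower, and 59.1% of those in the brightest bin. Pcdh10, which takes part in the removal of excitatory synapses, had signals of 484, 505, 486, 410, 633 and 590 in young rats and 441, 444, 384, 450, 423 and 382 in aged rats. All aged rats lay below the young median of 495, although the lowest young rat lay within the aged range. In log2 terms the change was -0.29 (SE 0.1004, adjusted p = 0.438). Pcdh9 ranged from 6931 to 8450 among the young and from 6226 to 7538 in aged rats, with a log2 fold change of -0.09 (95% interval -0.24 to 0.07), and -0.05 without aged rat 2. Chosen after their values were seen, Pcdh19, Pcdh8 and Pcdh18 had log2 fold changes of -0.27, -0.24 and -0.19, with standard errors of 0.177, 0.157 and 0.123.

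Alcam, an immunoglobulin-type molecule that guides axons and binds CD6 on T cells, had signals of 4386, 5084, 5237, 5332, 5271 and 5045 in young rats. Aged rats had 4491, 4582, 4303, 4101, 4702 and 4916. A single young rat lay inside the aged range, and the remaining 5 lay above every aged rat. Alcam is also a gene that the study named. Its log2 fold change was -0.16 (SE 0.064, adjusted p = 0.486). Ncam1, the founding neural cell adhesion molecule, ranged from 930 to 1418 among the young and from 970 to 1772 in aged rats by its brightest probe set. The log2 fold change there was 0.26 (SE 0.154, adjusted p = 0.644).

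Of the 4 L1 family genes 3 were lower. Chl1, a close homologue of L1, averaged 1320 ± 104 in young and 1166 ± 197 in the aged (SD, n = 6 each). Below every young rat lay 4 aged rats and above them 1, and the log2 fold change was -0.19 (SE 0.110, adjusted p = 0.636), or -0.11 without aged rat 4. Nrcam, which gathers channels at the node of Ranvier together with Nfasc, averaged 4629 ± 222 and 4326 ± 478. The difference of -0.10 on the log2 scale had a 95% interval from -0.27 to 0.07, and was -0.044 without aged rat 6.

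Cntn2, also called TAG-1, holds the juxtaparanodal part of the axon to the myelin sheath and is made by neurons and oligodendrocytes. Young rats had signals of 172, 152, 130, 152, 132 and 129, and aged rats 231, 166, 210, 162, 180 and 232. Above every young rat lay 4 aged rats, and the remaining 2 lay above all young rats but 1. The log2 fold change was 0.44 (SE 0.115, adjusted p = 0.277), the smallest adjusted p of any adhesion gene. Cntn1, the contactin of the paranode, ranged from 1319 to 1783 among the young and from 867 to 1961 in aged rats. Its log2 fold change of -0.04 had a 95% interval from -0.40 to 0.33, and 4 of the 6 contactins were lower. Cntnap2 or Caspr2, the axonal partner of Cntn2, ranged from 1551 to 1757 among the young and from 1646 to 1941 in aged rats. With 3 aged rats above every young rat, its log2 fold change was 0.10 (SE 0.059, adjusted p = 0.633). All 3 contactin-associated proteins had higher means, from 0.03 to 0.10 on the log2 scale.

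Opcml, an IgLON protein held in the membrane by a lipid anchor, ranged from 3771 to 4960 (median 3906) among the young and from 3274 to 4183 (median 3647) among the aged. Of the aged rats 4 lay below every young rat, and the log2 fold change was -0.15 (SE 0.083, adjusted p = 0.608), or -0.098 without young rat 4. Negr1, another IgLON, had signals of 4015 to 5553 in young and 2928 to 5711 in aged rats, a log2 fold change of -0.21 (SE 0.149, adjusted p = 0.712) that was -0.10 without aged rat 1. Both the lowest and the highest Negr1 signals were in aged rats.

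Cadm3, a nectin-like molecule of axons, ranged from 1179 to 1425 (median 1351) among the young and from 1114 to 1303 (median 1180) among the aged. Every aged rat lay below the young median. Both of its probe sets gave a log2 fold change of -0.16, the brighter with SE 0.066 and adjusted p = 0.504. Cadm1, or SynCAM1, which bridges the synaptic cleft, averaged 3744 ± 367 and 3661 ± 287 (SD, n = 6 each), with a log2 fold change of -0.03 (95% interval -0.20 to 0.14).

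Both neurexins had lower means in aged rats. Nrxn3 ranged from 1733 to 2146 (median 2021) among the young and from 1442 to 2094 (median 1783) among the aged, a log2 fold change of -0.16 (SE 0.090, adjusted p = 0.616) that was -0.10 without aged rat 4. Nlgn1, the neuroligin of excitatory synapses, ranged from 1462 to 1650 among the young and from 1357 to 1570 in aged rats. Of the aged rats 5 lay below every young rat, and 1 lay among them. The log2 fold change was -0.11 (SE 0.053, adjusted p = 0.552).

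Separate probe sets of a gene gave further readings within the same rats. Of the 19 adhesion genes with more than 1 probe set tested, 11 were lower by every probe set, 2 were higher by every one, and 6 were mixed. The lower genes included Cadm3, Nlgn1, Opcml, Nrxn3, Nrcam, Pcdh9, Cdh2, Cdh13 and Cadm1. Nfasc, neurofascin of the node and the paranode, was among the mixed genes. Its brightest probe set averaged 823 ± 59.0 in young and 784 ± 96.7 in aged rats, whereas another averaged 294 ± 35.04 and 384 ± 63.9 (SD, n = 6 each). By the second one every aged rat lay above the young median, with 4 above every young rat. The difference between these log2 fold changes was 0.45 (SE 0.131, limma adjusted p = 0.897). Pcdhb12 was another such gene, with log2 fold changes of -0.07 by the brightest probe set and 0.61 by the other, a difference of 0.68 (SE 0.195, adjusted p = 0.897). Ncam1 had 0.26 and 0.25 by a pair of probe sets and -0.15 by the third, which differed from the brightest by -0.41 (SE 0.190, adjusted p = 0.9996). In the fit of such differences, chosen after seeing the data, 2 of 28 adhesion pairs met an unadjusted p of 0.05 or less (7.14%), against 4.47% of the 5998 pairs of all genes, and none of either passed an adjusted p of 0.05.

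**Figure D3:**
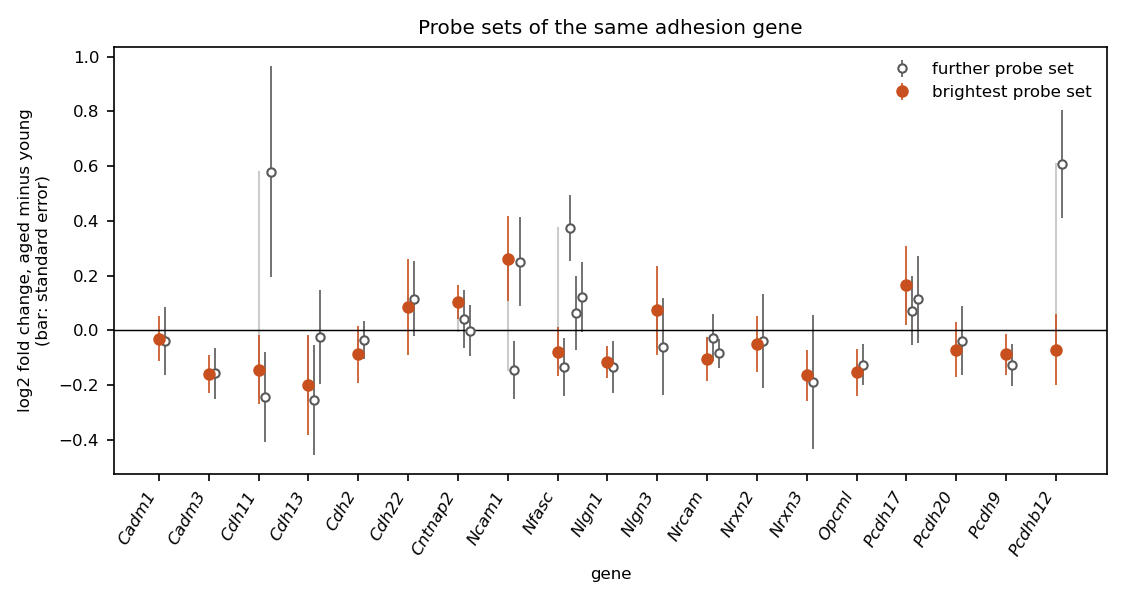
Log2 fold change, aged minus young, for each probe set of the 19 adhesion genes with more than 1 probe set tested; filled points are the brightest probe set, open points the others, and bars are standard errors. Most genes have their probe sets close together, and 1 open point each of Nfasc, Pcdhb12 and Cdh11 stands well above the filled one.

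Levels of myelin transcripts also varied among the rats. All 11 myelin markers had higher means in aged rats (median log2 fold change 0.24, none past an adjusted p of 0.05), and their summed signal ran from 34650 to 51030 among the young and from 35970 to 59440 in aged rats. Mog, an outer myelin protein, was highest in aged rats 1 and 4 (2590 and 2750) and next in young rat 1 (1993). Ncam1, Negr1 and Pcdh19 were picked from the 58 because their extreme rats were these 3, which had the highest Ncam1 signals, 1772, 1622 and 1418. They also had the lowest signals of Negr1 (2928, 3537 and 4015) and of Pcdh19 (362, 343 and 482). The Ncam1 signals are those of its brightest probe set, and its other probe sets ordered the rats otherwise. By these, aged rats 1 and 4 had 614 and 505.7, or 97.77 and 96.65, while aged rat 2 had 718.3 and 149.1. By summed myelin signal young rat 4 (51030) stood above young rat 1 (50190), and its signals of 1199 for Ncam1, 4947 for Negr1 and 687 for Pcdh19 were not extreme. Mbp, a protein of compact myelin, was 15310 in aged rat 1 and 19210 in young rat 4, so the order of rats depended on the marker. With the mean of the myelin markers as a covariate, a fit prompted by these values and so no separate support for them, the log2 fold change was 0.08 for Ncam1 and -0.04 for Negr1. In that fit Cntn2 had 0.35, Cdh23 1.80, Cdh1 1.498, Pcdh10 -0.24 and Alcam -0.13.

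**Figure D4:**
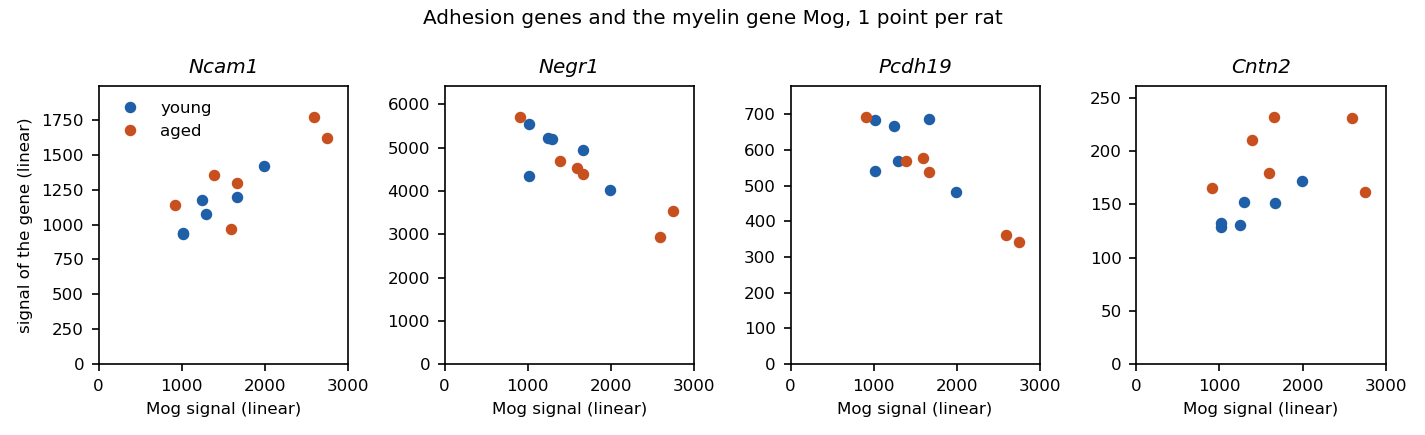
Linear signal of Ncam1, Negr1, Pcdh19 and Cntn2 against that of the myelin gene Mog, 1 point for each of 6 young (blue) and 6 aged (orange) rats. The 3 rats with the highest Mog signal have the highest Ncam1 and the lowest Negr1 and Pcdh19 signals, and these genes were chosen for that. For Ncam1 this holds for the brightest probe set, which is shown, and not for its other probe sets. For Cntn2 the young rat with the highest Mog has the highest young signal (172), while of the aged rats with the highest Mog 1 has a signal of 231 and 1 has 162.

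Markers of other cells also differed in mean between the ages. Of 13 microglial markers 12 were higher, with a summed signal of 5255 to 6894 in young and 5978 to 11230 in aged rats (medians 6166 and 6956). Of 11 endothelial and pericyte markers 9 were higher (4225 to 5143 and 4565 to 6538, medians 4630 and 5190). Both aged maxima were in aged rat 6, and the next aged sums were 7175 and 5399. Means were also higher for 8 of 10 astrocyte, 5 of 6 oligodendrocyte progenitor, 5 of 5 blood cell, 4 of 6 choroid plexus and 3 of 9 meningeal markers. Those of neighbouring regions were higher for 4 of 5 in hippocampus, 5 of 8 in striatum and 4 of 6 in thalamus. Of 16 neuronal markers 13 were lower (median log2 fold change -0.085). Their summed signal was 79740 to 96880 in young and 80220 to 86050 in aged rats, with medians of 81900 and 81850. The young maximum was in young rat 4, and the next young sum was 86030. The 9 markers of cortical excitatory neurons were above the cutoff on all arrays, and every marker on the lists passed the signal filter. That filter passed 13253 of the 14218 genes with a probe set. The part of these other cells in the adhesion differences was not tested. The myelin covariate is no test of the part of myelin, because the same values prompted it.

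The genes that anchor, bind or cleave adhesion molecules were read from lists of their own. Of 87 such partners 29 were higher and 58 lower in aged rats (median log2 fold change -0.054), with none past an adjusted p of 0.05. Of all genes 43.1% were lower, and 59.1% of those in the brightest bin. Whether the partners differ from genes of like signal was not tested. At an unadjusted p of 0.05 or less 2 were higher and 4 lower, where 6.49% and 2.62% of all genes were. Of 11 catenins and cadherin anchors 9 were higher. Pkp4, a catenin-type protein of cell junctions, ranged from 3028 to 3798 among the young and from 3667 to 4713 in aged rats, with 5 aged rats above every young rat. The log2 fold change was 0.31 (SE 0.081, adjusted p = 0.261). Arvcf, another catenin of that type, had 0.35 (SE 0.140, adjusted p = 0.486), and Vcl, vinculin, which links junctions to actin, had 0.33 (SE 0.155, adjusted p = 0.556).

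Of 14 scaffolds with PDZ domains, which hold neurexins, neuroligins and their receptors in place, 11 were lower. Lin7b, which binds the neurexin scaffold Cask, ranged from 1677 to 1951 among the young and from 1354 to 1716 in aged rats. Of the aged rats 5 lay below every young rat, and the log2 fold change was -0.27 (SE 0.064, adjusted p = 0.219). Dlg3, or SAP102, a scaffold of glutamate receptors, averaged 1331 ± 70.0 and 1127 ± 125 (SD, n = 6 each), with a log2 fold change of -0.25 (SE 0.075, adjusted p = 0.358). A further 33 synaptic and neuronal adhesion molecules outside the symbol rule were lower in 28 cases, where 43.1% of all genes were. Their median log2 fold change was -0.11. Among them Ptprs, a receptor phosphatase that binds synaptic partners across the cleft, had -0.18 (SE 0.076, adjusted p = 0.518). Ankyrin and spectrin anchors (8 of 11 lower), secreted partners (4 of 8) and shedding proteases (5 of 10) had medians of -0.026, -0.0065 and 0.027.

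**Figure D5:**
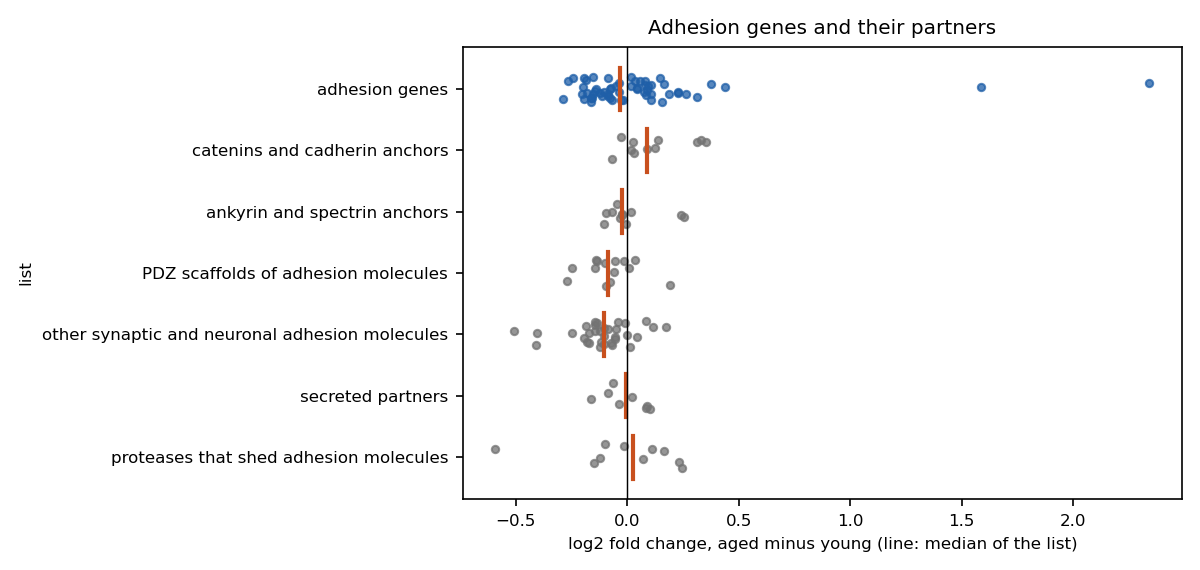
Log2 fold change, aged minus young, of the 58 adhesion genes and of 6 lists of partner genes, 1 point per gene with random vertical scatter and the median of each list as a line. The median lies above 0 for the catenins and anchors and the proteases, and below 0 for the scaffolds and the other adhesion molecules.

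The sample codes fell in a lower and a higher number series, each with both ages (3 young and 4 aged, then 3 young and 2 aged). Within the lower and the higher series the log2 fold change was 0.34 and 0.57 for Cntn2, 1.26 and 1.93 for Cdh23, -0.20 and -0.41 for Pcdh10, and -0.16 and -0.12 for Alcam. These genes were chosen on the same rats, and the Cdh23 groups do not overlap, so the values are a description.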

How the data were processed

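RNA from 1 cortex sample per rat was hybridized to a rat Affymetrix array (RAE230 2.0, 31099 probe sets). The authors deposited linear signal intensities, 1 value per probe set and array, with the same trimmed mean (500.1, leaving out 2% at each end) on all 12 arrays. By the methods these are gcRMA signals, while GCRMA, MAS5 and R 2.7.1 are listed in the submitters' processing notes. The values are linear with 1 common trimmed mean, the form of a scaled signal rather than of gcRMA output on its log2 scale, and the conflict was not settled. Median signals were 161.6 to 171.9 on young and 167.9 to 194.3 on aged arrays, and array number limits the precision. Each array was of a separate rat.

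Signals were log2 transformed without further normalization. Genes were named from the platform table, using the 20832 probe sets with 1 symbol (436 had several and 9831 none, and 20764 gene IDs matched the rat gene table). Each gene was its probe set with the highest mean log2 signal, kept where log2 signal exceeded 4.3 (signal 19.7) on at least 3 arrays, a cutoff that the methods set on gcRMA values. Ages were compared by limma 3.58.1 in R 4.3.3 (two-sided, no covariate), with Benjamini-Hochberg adjustment over all 13253 genes. The same fit was also run on simulated data with known changes. Named genes were the 8 adhesion genes with the smallest p in each direction, Alcam, the brightest member of each subfamily, and 3 partner genes in each direction. The adhesion genes, partner lists and markers were chosen with earlier results of these data known. Alternatives covered normalization, filter, probe set rule, variance model, the methods' t-test, blocks, code series and each rat left out. Figures used Python 3.11.15 and matplotlib 3.10.9.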

Additional observations from a re-analysis of the deposited data

Results flagged for a closer look

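In 3 cases a rat stood apart from the rest of its age group in the log2 signal of a named adhesion gene, by a gap to the nearest rat above Dixon's critical value for 6 samples. Young rat 1 had an Alcam signal of 4386, against 5045 to 5332 in the other young rats. Aged rat 5 had a Cadm3 signal of 1303, against 1114 to 1181 in the other aged rats. Young rat 4 had a Cdh23 signal of 8.59, below the cutoff, against 47.0 to 93.8 in the other young rats. The groups examined numbered 48, for 24 genes in both ages, and chance alone marks about 1 group in 20.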

How the results depend on the processing

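No adhesion gene passed an adjusted p of 0.05 under any alternative run, and the lowest adjusted p of a named gene was 0.121 (Cdh23 without young rat 4). Cntn2, Pcdh10 and Alcam kept their direction in every alternative, all run on the rats that chose them. Counts at an unadjusted p of 0.05 or less moved more. With the median of each array set equal, 8 adhesion genes were lower (6.67% of all genes). The medians were then -0.10 for adhesion genes and -0.12 for partners (all genes 0.024 before and -0.047 after). With the cutoff required on all 12 arrays, which leaves out Cdh1 and Cdh23, 2 were higher (7% of all genes). The lower code series alone gave 1 higher and 0 lower (3.29% and 1.52% of all genes), with Cntn1 at 0.0496. The higher series alone gave 1 lower (1.62% of all genes), with Cdh2 at 0.17. When the probe sets of a gene were averaged, the adhesion median was 0.015 and Cdh2 was at 0.14. Without aged rats 2 and 6, the arrays least like the others, Cdh22 was at -0.0354 and Cntn1 at 0.0377; this and the myelin covariate were chosen after seeing the data. That covariate gave 2 lower (2.54% of all genes), with Cadm1 at 0.0291 and Cdh13 at 0.00088. The cause of these moves was not tested, other than the genes, rats or probe sets that an alternative leaves out or takes in.

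Leaving out 1 rat at a time gave 3 to 6 adhesion genes higher, 1 to 5 lower and 0 past the adjusted threshold. Of all genes, 5.01% to 7.98% were then higher and 2.02% to 3.38% lower. Adhesion medians ran from -0.054 to -0.015 and partner medians from -0.070 to -0.028. The lower count was 1 without aged rat 3 (2.52% of all genes) and 2 without young rats 2, 4, 5 or 6 or aged rat 4 (2.02% to 2.35%). Cntn1 ran from -0.12 to 0.11, Cadm1 from -0.064 to 0.0085 and Cdh22 from -0.0325 to 0.18. With the subject number as a replicate block, 5 were higher, 3 lower (8.23% and 3.08% of all genes) and 0 adjusted. The deviations of rats of the same number from their group means had correlations of -0.04 to 0.16. Rats of different numbers were not compared, so these values cannot show whether rats of the same number shared a processing order. Each array was of a separate rat, and the main fit does not pair them.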
